A study of Mus musculus with 8 samples.

Results

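Eosinophils of 2 sorted surface phenotypes, Siglec-Fint/CD101- and SiglecFhi/CD101+, were set together as 1 arm of 4 libraries against 4 libraries of resident eosinophils. The members were chosen by sample title alone: Siglec-Fint/CD101- replicates 1 and 2, SiglecFhi/CD101+ replicates 1 and 2, and resident replicates 3 to 6, which are all 8 libraries of the series. All came from C57BL/6 mice in a study of an asthma model, and RNA was read by CEL-Seq, which amplifies RNA linearly and counts reads near transcript 3′ ends. The labels name no allele, agent, dose, time, age or tissue for any group, so a treatment that differed between the arms cannot be told apart from the sort. Siglec-F is a lectin-type inhibitory receptor for sialic acids, and CD101 is a receptor of the immunoglobulin family. The labels do not tie replicates to different animals, so the p-values speak only of the spread between these libraries, which may be technical.

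Eosinophils leave the bone marrow under interleukin-5 and settle in tissues such as the lung, where a small population is present without allergen. In allergic airways the type 2 cytokines interleukin-4 and interleukin-13 act through the transcription factor STAT6, and lung macrophages and epithelium then make RELMα (Retnla), chitinase-like proteins (Chil3, Chil4) and the secreted chloride channel regulator CLCA1. Metallothioneins (Mt1, Mt2) are small cysteine-rich proteins that bind zinc and copper, and their genes are switched on by metal ions through metal response elements near the start site.

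The arms differed in depth before any gene was compared. Total counts ran from 5600610 to 11583550 in resident and from 1513517 to 3109428 in subset libraries, and genes of the mitochondrial genome (mt- genes) took 38.6% to 61.8% and 69.9% to 83.9% of them. Outside mt- genes that left 2137819 to 5296468 counts per resident and 444902 to 552121 per subset library, with no overlap in total, mitochondrial share or genes detected (12700 to 15997 against 7356 to 10834). Over all genes outside mt-, Spearman correlations described resident libraries as alike (0.763 to 0.804), while subset libraries of the same label reached 0.521 and 0.465, libraries of different subsets 0.463 to 0.495, and resident with subset libraries 0.509 to 0.626. The counts of genes below were repeated without mt- genes and, in a single random draw, at equal depth. These repeats show how the counts change and do not measure the whole part of depth or mitochondrial share.

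The labelled cell type was checked against its markers. Epx, the eosinophil peroxidase gene (named after its values were seen), had 25 counts in resident replicate 5 and 0 in the other 7 libraries. Il5ra, the interleukin-5 receptor chain that defines the lineage, had 58 counts in the resident libraries and 0 in all 4 subset libraries, at least 2.36-fold lower against 3 counts over the arm. Of the 58 counts 57 were in resident replicate 6, and without that library no fold can be given. Siglecf read 12.4, 41.8, 4.00 and 18.5 CPM (counts relative to TMM-scaled library size) in resident replicates 3 to 6, 0 CPM in both Siglec-Fint/CD101- libraries, and 11.1 and 29.2 CPM in the SiglecFhi/CD101+ libraries. The arms overlapped, with a log2 fold change of -0.93 ± 1.49 (SE, n = 4 and 4; edgeR quasi-likelihood, Benjamini-Hochberg adjusted p = 0.969). Cd101 read 31.2, 24.8, 3.93 and 31.9 CPM in resident libraries, against 0 and 0.641 CPM in Siglec-Fint/CD101- and 1.17 and 0.663 CPM in SiglecFhi/CD101+ libraries. All 4 subset libraries, also those sorted as CD101+, lay below all 4 resident libraries (4 counts against 1095; log2 fold change -5.15 ± 1.48, edgeR adjusted p = 0.118). Epx and Il5ra were thus at or near 0 in every library, while Siglecf and Cd101 were counted in every resident library. Columns in the deposited tables bear a letter that the labels leave unexplained: libraries titled resident bear N, and R marks those titled Siglec-Fint/CD101-, while the SiglecFhi/CD101+ libraries bear I. Whether each table holds the cells its title names could not be checked, and every value below is that of the labelled group.

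The promoters of 4 genes are shown first: Retnla, Chil3 and Chil4 as type 2 products among the higher genes, and Mt1 as the more deeply counted metallothionein gene among the lower. Each runs from 250 bases before to 50 bases after the start site, 5′ to 3′ on the gene's strand, from RefSeq on GRCm38.p6. Retnla is at chr16:48842359-48842658 (plus strand), Chil3 at chr3:106167515-106167814 (minus), Chil4 at chr3:106219430-106219729 (minus) and Mt1 at chr8:94178839-94179138 (plus). Capitals mark a TTC and GAA pair spaced by 4 bases in Retnla, the form STAT6 prefers, TTCNNNGAA in Chil3 and Chil4, the form most other STAT proteins bind, and the metal response element cores TGCACNC and TGCGCNC in Mt1.
Retnla: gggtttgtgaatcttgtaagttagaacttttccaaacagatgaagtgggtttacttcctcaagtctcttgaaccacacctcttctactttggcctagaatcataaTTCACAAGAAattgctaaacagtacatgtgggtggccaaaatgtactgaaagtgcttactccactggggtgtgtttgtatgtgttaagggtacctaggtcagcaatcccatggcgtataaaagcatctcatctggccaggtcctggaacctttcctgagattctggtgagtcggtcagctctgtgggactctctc
Chil3: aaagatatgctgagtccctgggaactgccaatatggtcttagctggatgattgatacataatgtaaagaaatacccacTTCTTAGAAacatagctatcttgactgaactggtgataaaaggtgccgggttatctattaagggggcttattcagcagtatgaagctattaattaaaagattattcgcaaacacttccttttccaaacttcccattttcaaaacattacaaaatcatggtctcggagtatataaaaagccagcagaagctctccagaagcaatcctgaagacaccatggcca
Chil4: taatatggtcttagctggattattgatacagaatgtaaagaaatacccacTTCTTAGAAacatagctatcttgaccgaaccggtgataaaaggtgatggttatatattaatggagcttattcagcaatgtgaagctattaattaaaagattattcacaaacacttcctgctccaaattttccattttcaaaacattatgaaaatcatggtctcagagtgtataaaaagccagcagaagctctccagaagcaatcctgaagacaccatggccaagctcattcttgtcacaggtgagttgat
Mt1: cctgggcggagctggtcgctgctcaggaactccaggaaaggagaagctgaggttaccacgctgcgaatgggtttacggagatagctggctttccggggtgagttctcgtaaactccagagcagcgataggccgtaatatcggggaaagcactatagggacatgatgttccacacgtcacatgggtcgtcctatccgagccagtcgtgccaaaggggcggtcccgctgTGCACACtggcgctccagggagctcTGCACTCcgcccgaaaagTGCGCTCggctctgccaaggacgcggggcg
The Chil3 and Chil4 promoters share an unbroken run of 53 bases, and the capitals read the same in both. Each motif was searched on both strands, separately, so that matches of different motifs may overlap, and the metal response cores were added after the expression values were seen. Among 32851 mouse promoters of the same length, the pair spaced by 4 bases occurred in 6.95%, TTCNNNGAA in 8.3%, CCAAT in 37.4%, TGCACNC in 12.6% and TGCGCNC in 15.4%. Of the 10 higher genes named below, 8 had a promoter in the table: the pair spaced by 4 bases was in Retnla, TTCNNNGAA in Chil3, Chil4 and Ndufa8, and CCAAT in Chia1, Chil3 and Pcdh9. Of the 10 lower genes, 9 had one: TGCACNC was in Mt1 and Mt2, TGCGCNC in those 2 and in Lsr and Tank, and CCAAT in Fpr1, Sema4a and Tank. A match is a string in this window and no measurement of binding.

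The pooled comparison asked which genes moved together in both sorted subsets. Of 8508 genes tested, 4 rose in the subset arm and 0 fell at an edgeR adjusted p under 0.05, which is 0.047% and 0% of the genes tested. Before adjustment, 138 genes were higher and 692 lower at a p under 0.05. With library totals alone in place of TMM factors, 3 genes were called higher and 16 lower. DESeq2 called 91 higher and 329 lower, and limma-voom 28 and 220. The gene-wise spread was wide, with a common biological coefficient of variation of 1.11.

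Retnla, the gene of the type 2 effector protein RELMα (chr16:48842551-48844461), rose most firmly. It read 11.1, 41.0, 28.0 and 76.0 CPM in resident replicates 3 to 6, 2919 and 1548 CPM in Siglec-Fint/CD101- and 2784 and 1067 CPM in SiglecFhi/CD101+ libraries. Its lowest subset value stood far above its highest resident value, and neither subset held both of the higher readings. The log2 fold change was 5.73 ± 0.58 (edgeR adjusted p = 0.00052), and 5.78 (edgeR adjusted p = 0.000279) without mt- genes in the totals.

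Chil3, which encodes the chitinase-like lectin Ym1 (chr3:106147554-106167564), also rose. Its level was 664, 656, 469 and 493 CPM in the resident libraries, 4348 and 1585 CPM in Siglec-Fint/CD101- and 2362 and 1907 CPM in SiglecFhi/CD101+ libraries. The resident libraries were close together and the subset arm lay wholly above them, with a log2 fold change of 2.16 ± 0.34 (edgeR adjusted p = 0.0363; 0.0189 without mt- genes). Omitting any 1 library other than Siglec-Fint/CD101- replicate 1 ended the call. Over the last 500 bases of their transcripts, 15.4% of the 50-base windows of Chil3 also occur in Chil4 and 17.1% of those of Chil4 in Chil3. Reads within these windows may not be assignable to either gene, and how the authors' counting treated them is not given in the sources used here.

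Igha, the constant region of immunoglobulin A heavy chains made by plasma cells (chr12:113254830-113260236), rose as well. It read 0.784, 0.225, 10.9 and 1.71 CPM in resident libraries, 664 and 372 CPM in Siglec-Fint/CD101- and 144 and 1533 CPM in SiglecFhi/CD101+ libraries. The arms did not overlap, and the log2 fold change was 7.62 ± 1.15 (edgeR adjusted p = 0.0358; 0.0189 without mt- genes). The call was lost on omitting resident replicate 3 or 6, Siglec-Fint/CD101- replicate 2 or either SiglecFhi/CD101+ library. The log2 fold change of Igha was 9.50 without resident replicate 5 and 6.76 without SiglecFhi/CD101+ replicate 2.

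The last called gene was Gm26870, a predicted long noncoding RNA (chr9:3000282-3038313). Its values were 81.3, 48.1, 66.7 and 23 CPM in resident, 330 and 387 CPM in Siglec-Fint/CD101- and 2059 and 7783 CPM in SiglecFhi/CD101+ libraries. Both SiglecFhi/CD101+ readings stood above both Siglec-Fint/CD101- readings. The pooled log2 fold change was 5.59 ± 0.91 (edgeR adjusted p = 0.0381), but the gene missed the threshold without mt- genes (edgeR adjusted p = 0.0666) and on omitting any 1 library other than Siglec-Fint/CD101- replicate 1. Without SiglecFhi/CD101+ replicate 2 the log2 fold change of Gm26870 was 3.98. Its exons overlap Gm10715 and other gene models on the opposite strand, and the strand used in counting is not given in the sources used here, so reads of these models cannot be told apart. The same holds for Lsr, Nlrc5, Hspa1a, H2-DMa, Cxcl10, Csf1r and Fgf14, whose exons also overlap a model on the opposite strand.

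Agreement of all 4 subset libraries was then counted gene by gene, as a description. With mt- genes in the totals, 82 genes (0.964% of 8508) lay higher in all 4 subset libraries than in any resident library and 866 (10.2%) lay lower. Without mt- genes these were 81 (1.01% of 8032) and 715 (8.9%). Under both totals 73 genes (0.917% of 7960) were higher and 714 (8.97%) lower, and these are called shared higher and shared lower genes below. Of the 82 and 866 genes, 74 and 733 were also tested without mt- genes, and 73 and 714 of those held their place. The shared higher genes had a median log2 fold change of 1.92 and the shared lower genes of -3.55, against -0.20 for all genes tested (-0.17 without mt- genes).

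**Figure D1:**
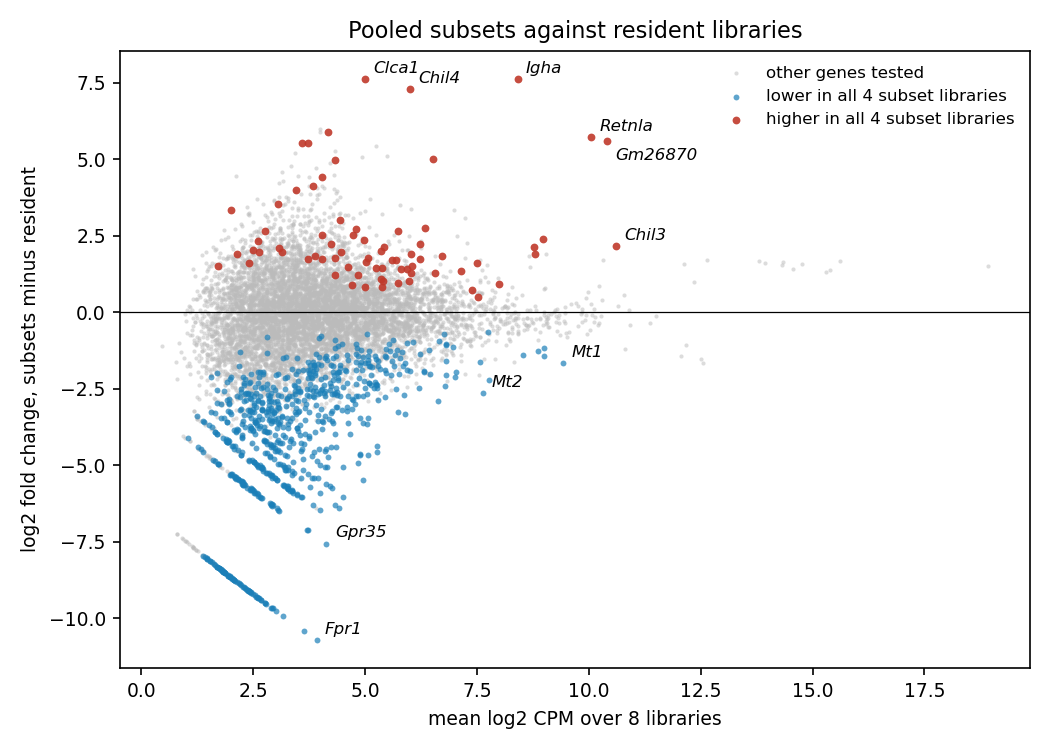
Log2 fold change (subsets minus resident, vertical) against mean log2 CPM over the 8 libraries (horizontal) for the 8508 genes tested; red points are the 73 genes higher and blue points the 714 genes lower in all 4 subset libraries under both totals. The blue points crowd at low level, where diagonal lines hold genes with few or 0 counts in the subset arm.

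Most shared lower genes were thinly counted in the subsets. Of the 714, 79 had 0 counts in all 4 subset libraries, 450 had counts in 1 to 3 of them and 185 had counts in all 4. The expression filter admits a gene through either arm, so those 79 were tested through their resident counts alone. Genes among the 450 may have been too. All are part of the 8.97% share of lower genes. Among shared higher genes, 0 had 0 counts in all 4 resident libraries, which were the deeper ones. Shared higher genes with low resident levels, such as Igha, Chil4, Clca1 and Jchain, may likewise have been tested only through their subset counts. A count of 3 equals 1.75 to 2.13 CPM in a subset library and 0.190 to 0.471 CPM in a resident one, and 3568 of the genes tested had a count in every subset library against 8111 in every resident library. When every library was thinned to 444902 counts outside mt- genes, 93 genes (1.72% of 5394) lay higher and 299 (5.54%) lower. Of the shared higher genes 62 could be tested at that depth and 61 remained higher, and of the shared lower genes 358 could be tested and 283 remained lower. Thinning also leaves out mt- genes, so its counts are best set against the 81 and 715 genes found without mt- genes, and it tested fewer genes.

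The 2 subsets were also compared with each other in a model of 3 group means. It called 1 of 8508 genes, and 0 of the 787 shared genes, with 1873 genes at an unadjusted p under 0.05. With 2 libraries a subset this does not show that the subsets are alike. For Retnla the SiglecFhi/CD101+ minus Siglec-Fint/CD101- log2 difference was -0.21 (edgeR adjusted p = 0.928) and for Chil3 -0.47 (edgeR adjusted p = 0.614). The other called genes were Igha, at 0.69 (edgeR adjusted p = 0.836), and Gm26870, at 3.78 (edgeR adjusted p = 0.097). That of Gm26870 was the lowest adjusted p among 67 named genes, and its pooled fold change covers unlike subset levels.

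Beyond Retnla and Chil3, the rule named 8 genes that were higher in all 4 subset libraries and did not pass the test. Chil4, the gene of the second chitinase-like protein Ym2, had 0, 0.0748, 2.95 and 0.0634 CPM in resident libraries, 283 and 137 CPM in Siglec-Fint/CD101- and 55.5 and 36.5 CPM in SiglecFhi/CD101+ libraries. The transcript was all but missing from the resident arm (47 counts against 761), with a log2 fold change of 7.29 ± 1.43 (edgeR adjusted p = 0.112). Clca1, a secreted goblet-cell protein induced by interleukin-13, had 0, 1.12, 0 and 0.0634 CPM in resident libraries, 82.3 and 10.3 CPM in Siglec-Fint/CD101- and 137 and 25.9 CPM in SiglecFhi/CD101+ libraries. Its lowest subset value was again above every resident value (16 counts against 406; log2 fold change 7.63 ± 1.60, edgeR adjusted p = 0.112). Chia1, the acidic chitinase of lung and stomach, had 0.157, 1.87, 20.2 and 0 CPM in resident libraries, 288 and 80.8 CPM in Siglec-Fint/CD101- and 264 and 84.9 CPM in SiglecFhi/CD101+ libraries. Resident replicate 5 held nearly all of the resident signal (log2 fold change 5.00 ± 1.41, edgeR adjusted p = 0.113).

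The other 5 higher genes are of mixed function. C3, the central complement component, read 14.7, 15.8, 32.5 and 20.3 CPM in resident libraries, 94.4 and 96.9 CPM in Siglec-Fint/CD101- and 224 and 146 CPM in SiglecFhi/CD101+ libraries (log2 fold change 2.75 ± 0.60, edgeR adjusted p = 0.112). Both SiglecFhi/CD101+ values stood above both Siglec-Fint/CD101- values. Ly6a, the surface protein Sca-1, ran from 64.7 to 335 CPM in resident and from 431 to 1200 CPM in subset libraries (1.92 ± 0.49, edgeR adjusted p = 0.112). Ndufa8, a nuclear-encoded subunit of respiratory complex I, ran from 7.22 to 20.6 CPM and from 39.7 to 161 CPM (2.65 ± 0.73, edgeR adjusted p = 0.112). Sftpa1, the surfactant protein A gene of alveolar type 2 cells, ran from 21.3 to 429 CPM and from 622 to 750 CPM (2.12 ± 0.65, edgeR adjusted p = 0.14). The subset libraries agreed closely on Sftpa1, while the resident libraries spread widely. Pcdh9, a neuronal protocadherin, had 0.157, 0.15, 1.11 and 0.697 CPM in resident libraries, 30.5 and 7.06 CPM in Siglec-Fint/CD101- and 60.8 and 5.3 CPM in SiglecFhi/CD101+ libraries (5.54 ± 1.48, edgeR adjusted p = 0.112).

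**Figure D2:**
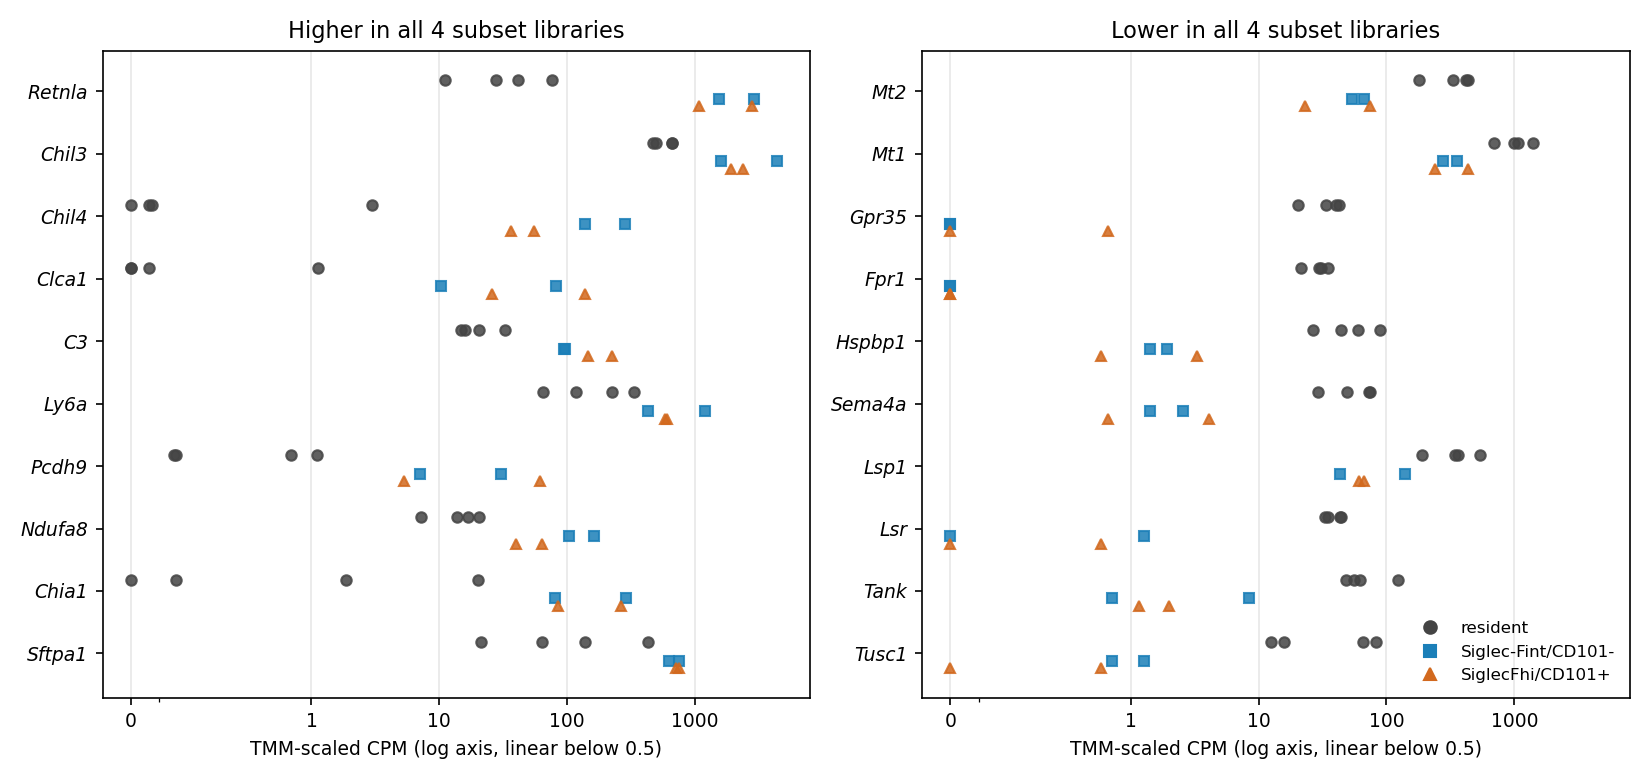
TMM-scaled CPM (horizontal, log axis, linear below 0.5) of the 10 higher genes (left) and the 10 lower genes (right) named by the rule; each point is 1 library, grey for resident, blue for Siglec-Fint/CD101- and orange for SiglecFhi/CD101+. In each row the 4 subset points lie on 1 side of the 4 resident points, for Retnla at 1067 to 2919 against 11.1 to 76.0 CPM.

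No gene passed the test in the lower direction (0%), and the 10 genes named there had edgeR adjusted p-values of 0.108 to 0.112. The metallothionein genes had the smallest p of these. Mt2 read 422, 435, 181 and 333 CPM in resident libraries, 54.0 and 66.7 CPM in Siglec-Fint/CD101- and 74.8 and 23.2 CPM in SiglecFhi/CD101+ libraries (-2.65 ± 0.48, edgeR adjusted p = 0.108). Mt1 read 1064, 1412, 699 and 990 CPM in resident libraries, 356 and 278 CPM in Siglec-Fint/CD101- and 431 and 240 CPM in SiglecFhi/CD101+ libraries (-1.67 ± 0.32, edgeR adjusted p = 0.112). Both genes were measured in every library, the 2 subsets interleaved, and the arms did not overlap. No 50-base window of the last 500 bases is shared between Mt1 and Mt2, and an exon of Mt2 overlaps Gm45774 on the opposite strand.

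A pair of receptors in the lower group were all but missing from the subsets. Fpr1, the formyl peptide receptor through which myeloid cells sense bacteria, had 21.3, 29.9, 30.8 and 34.8 CPM in resident libraries and 0 in all 4 subset libraries. That is 1554 counts against 0 and at least 63.1-fold lower against 3 counts over the arm (edgeR adjusted p = 0.112). Gpr35, a G protein-coupled receptor for tryptophan and serotonin metabolites on granulocytes, had 20.2, 40, 33.6 and 42.5 CPM in resident libraries and a single count in the subset arm, in SiglecFhi/CD101+ replicate 2. The resident level was 225 times the subset level (exact 95% counting interval 40.3 to 8891), and like all such intervals here it covers counting error only.

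The remaining named lower genes were Lsp1, a leukocyte actin-binding protein, Hspbp1, a co-chaperone that releases nucleotide from HSP70, Sema4a, an immune semaphorin, Tank, an adaptor of NF-κB and interferon signalling, Lsr, a lipoprotein receptor of tight junctions, and Tusc1. Lsp1 ran from 190 to 542 CPM in resident and from 43.0 to 140 CPM in subset libraries (-2.21 ± 0.48, edgeR adjusted p = 0.112). Hspbp1 (26.7 to 88.6 against 0.584 to 3.31 CPM), Sema4a (28.9 to 73.9 against 0.663 to 4.09 CPM) and Tank (48.5 to 124 against 0.71 to 8.34 CPM) had 11, 14 and 19 counts in the whole subset arm. Tusc1 had 4 subset counts. Lsr had 3, and its resident level was 81.5 times the subset level (exact counting interval 27.8 to 396). Unlike Lsp1, the other 5 rest on few subset counts each.

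Gene lists were read by counts of members and by their median log2 fold change, beside -0.20 for all genes tested. The lists were chosen with earlier results of these data known, so their shares describe the members and are no independent support. That general median depended on scaling: it was 0.08 with RLE factors and -1.16 with library totals alone, so list medians are best read against it. In the list of type 2 secreted products and chemokines, 18 of 24 genes were tested, 2 rose and 0 fell, 5 were shared higher (0.917% of all genes were) and 1 shared lower (8.97% of all genes were), and the median was 0.78. Chil1, the chitinase-like protein BRP-39 (chosen after its values were seen), completed the shared higher members with 8.53 to 468 CPM in resident and 528 to 1179 CPM in subset libraries (2.41 ± 0.82, edgeR adjusted p = 0.201). The list's summed level was 1557 to 2099 CPM in resident and 5432 to 10809 CPM in subset libraries. Other type 2 genes did not move the same way: Il13ra1, the binding chain of the interleukin-13 receptor, was shared lower, with 883 resident and 2 subset counts (53.8 times, exact counting interval 14.9 to 445). Alox15, an arachidonate lipoxygenase of eosinophils and macrophages, read 0.157 to 13.8 against 9.94 to 65.6 CPM and overlapped (3.17 ± 1.25, edgeR adjusted p = 0.331).

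MHC class II genes, which present peptides to CD4 T cells, read lower as a list but not without overlap. All 11 tested members had a negative log2 fold change, with a median of -1.43, 0 passed the test and 1 was shared lower, a share near the 8.97% of all genes. H2-Aa read 8533, 14349, 4076 and 9508 CPM in resident libraries, 5352 and 1938 CPM in Siglec-Fint/CD101- and 2201 and 2015 CPM in SiglecFhi/CD101+ libraries (-1.66 ± 0.40, edgeR adjusted p = 0.112). Only Siglec-Fint/CD101- replicate 1 reached into the resident range, and only past resident replicate 5. Cd74, the invariant chain, read 4317 to 13712 against 1673 to 4717 CPM (-1.54 ± 0.37, edgeR adjusted p = 0.112), and H2-Eb1 2540 to 9468 against 1522 to 4169 CPM (-1.43 ± 0.41, edgeR adjusted p = 0.117). MHC class I and peptide loading genes had a median of -0.14, near that of all genes, and 1 of 21 was shared lower, a smaller share than the 8.97% of all genes: Nlrc5, the class I transactivator, had 512 resident counts and 0 subset counts, at least 20.8-fold lower.

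**Figure D3:**
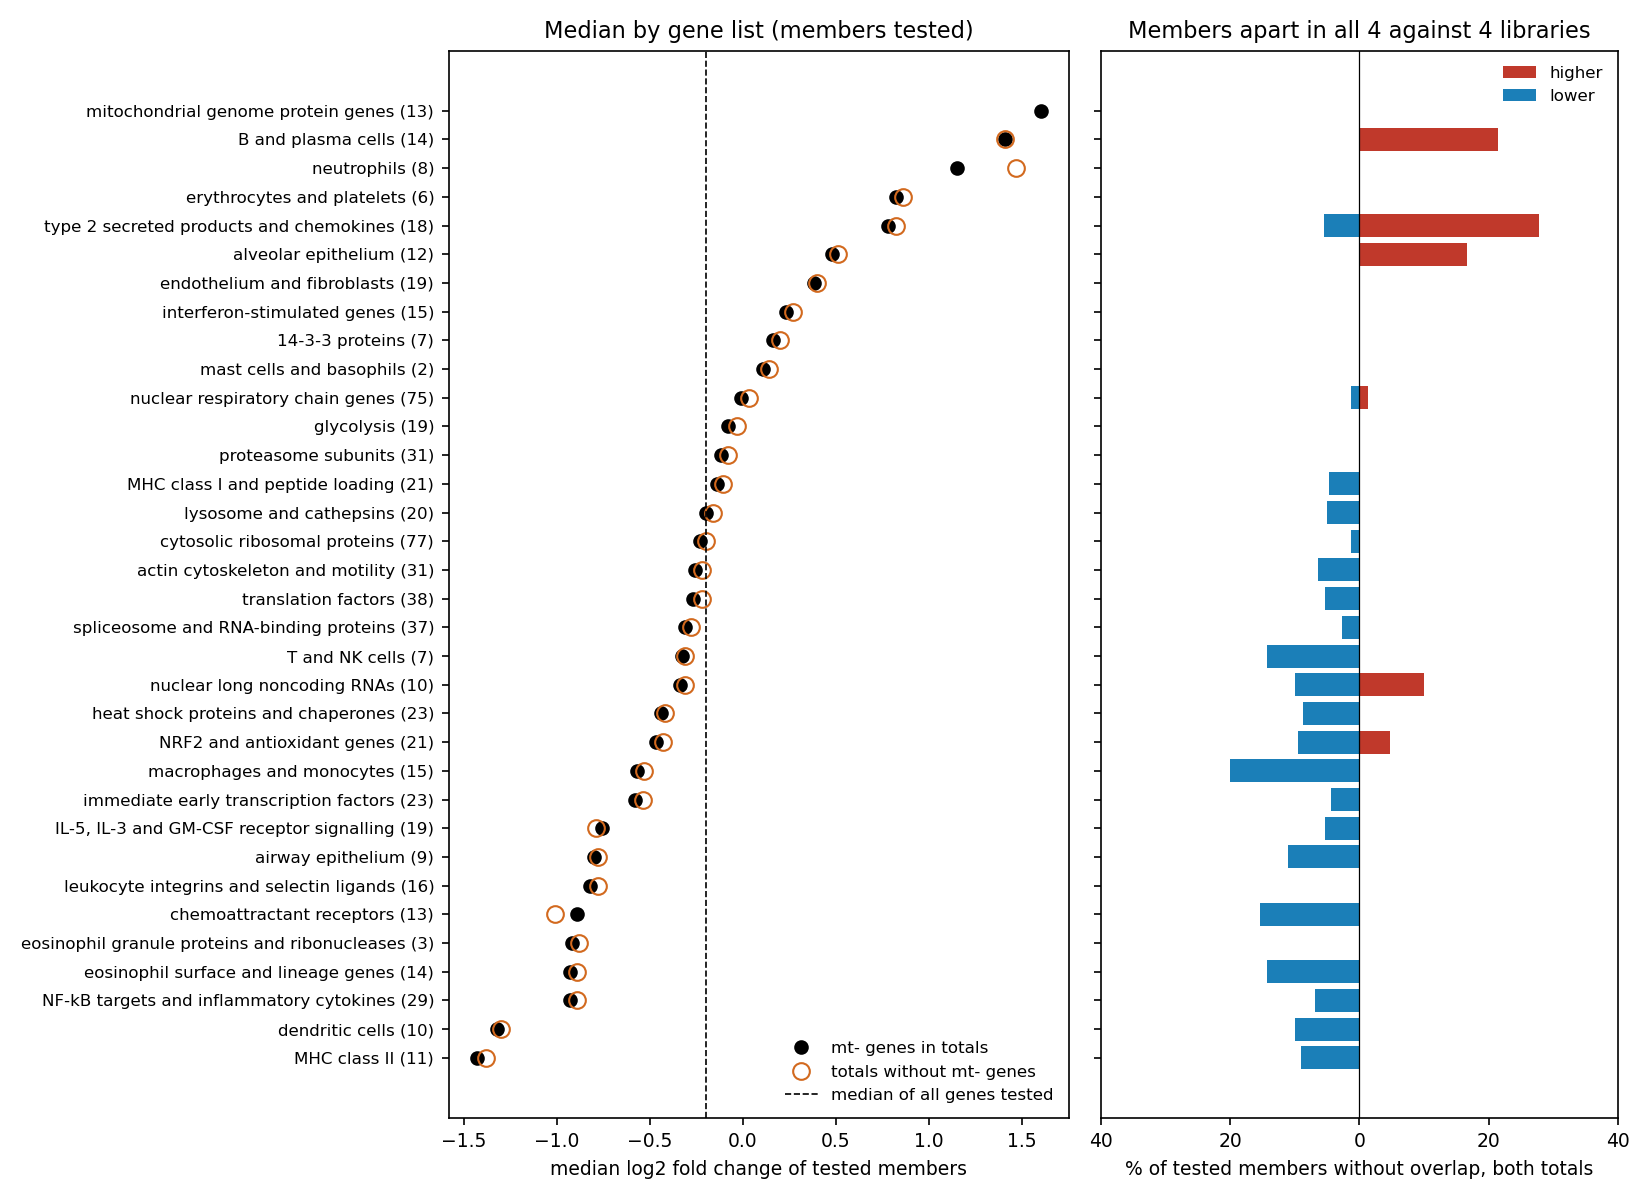
Left, median log2 fold change (subsets minus resident) of the tested members of 34 gene lists, filled with mt- genes in the totals and open without them, beside the median of all genes tested (dashed, -0.20). Right, percent of tested members that were higher (red) or lower (blue) in all 4 subset libraries under both totals; type 2 products had 5 of 18 higher and MHC class II genes 1 of 11 lower.

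Mitochondrially encoded transcripts were higher when they were left in the table. Of the 13 protein genes of the mitochondrial genome, all tested, 12 had a positive fold change, 0 passed the test, and the median was 1.60. With mt- genes in the totals, 5 lay higher in all 4 subset libraries, as did 0.964% of all genes. mt-Co1, a subunit of cytochrome oxidase, read 12609, 11562, 5834 and 10263 CPM in resident, 20743 and 48425 CPM in Siglec-Fint/CD101- and 32492 and 23040 CPM in SiglecFhi/CD101+ libraries (1.63 ± 0.32, edgeR adjusted p = 0.112). mt-Co3 ran from 5357 to 10657 and from 14358 to 32019 CPM (1.60 ± 0.31, edgeR adjusted p = 0.112). The 75 tested nuclear genes of the respiratory chain did not move with them, at a median of -0.01. Of these, 1 was shared higher (Ndufa8) and 1 shared lower, beside 0.917% and 8.97% of all genes.

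Stress and signalling lists followed. The heat shock list had a median of -0.44, with 0 of 23 passing and 2 shared lower, near the 8.97% of all genes. These were Hspa1b and Hspa1a, the inducible HSP70 genes: Hspa1b ran from 428 to 1082 against 198 to 355 CPM (-1.44 ± 0.37, edgeR adjusted p = 0.112) and Hspa1a from 282 to 857 against 127 to 275 CPM (-1.40 ± 0.42, edgeR adjusted p = 0.136). In the NRF2 and antioxidant list (median -0.47, 0 of 21 passing, 2 shared lower and 1 shared higher beside 8.97% and 0.917% of all genes), Nfe2l2, which encodes the factor NRF2, was shared lower at 90.9 to 261 against 30.4 to 54.0 CPM (-2.06 ± 0.53, edgeR adjusted p = 0.112). Hmox1, haem oxygenase 1, was shared lower with 671 against 4 counts (-4.29 ± 1.53, edgeR adjusted p = 0.238). Slc7a11, the cystine transporter of the same pathway, was shared higher at 29.7, 22.7, 15.8 and 36.8 CPM in resident, 46.9 and 98.8 CPM in Siglec-Fint/CD101- and 57.8 and 294 CPM in SiglecFhi/CD101+ libraries (2.24 ± 0.70, edgeR adjusted p = 0.144). Members of this list thus lay on both sides.

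NF-κB targets and inflammatory cytokines had a median of -0.93, with 25 of 29 tested members negative, 0 passing and 2 shared lower, a smaller share than the 8.97% of all genes. Those 2 members are given as values of their own. Cd83, a maturation marker of antigen-presenting cells, read 157 to 402 against 70.1 to 119 CPM (-1.63 ± 0.43, edgeR adjusted p = 0.112), and Cxcl10, a CXCR3 ligand, 8.62 to 24.9 against 0.641 to 3.55 CPM (-3.13 ± 1.33, edgeR adjusted p = 0.413). Immediate early factors had a median of -0.58 and 1 of 23 shared lower, also under the share of all genes. Nr4a3, an orphan nuclear receptor among them, read 97.0 to 339 against 13.5 to 98.1 CPM and overlapped narrowly (-2.0 ± 0.60, edgeR adjusted p = 0.137).

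Genes by which eosinophils are recruited, kept alive and recognised gave no call, and their counts of shared lower genes are to be read beside the 8.97% of all genes. Receptor signalling for interleukin-5, interleukin-3 and GM-CSF had a median of -0.76, with 1 of 19 tested genes shared lower: Csf2rb, the common β chain, read 189, 170, 98.7 and 224 CPM in resident, 67.4 and 77.0 CPM in Siglec-Fint/CD101- and 69.5 and 98.1 CPM in SiglecFhi/CD101+ libraries (-1.13 ± 0.46, edgeR adjusted p = 0.372). The highest subset value fell just short of the lowest resident value. Of 14 tested surface and lineage genes (median -0.93), Cd101 and Il1rl1 were shared lower. Il1rl1, the interleukin-33 receptor ST2, had 2016 against 11 counts (-4.40 ± 1.18, edgeR adjusted p = 0.112). Of 12 listed granule genes 3 were tested. Prg2, major basic protein, read 14.9, 4.71, 4.98 and 7.67 CPM in resident, 0.71 and 1.92 CPM in Siglec-Fint/CD101- and 42.6 and 255 CPM in SiglecFhi/CD101+ libraries (3.22 ± 1.33, edgeR adjusted p = 0.384). Its 2 subsets fell on opposite sides of the resident arm, so the pooled fold change describes neither. Ear2, an eosinophil-associated ribonuclease, overlapped at 117 to 277 against 51.4 to 149 CPM (-0.92 ± 0.47, edgeR adjusted p = 0.602), and 31.7% of its 3′ windows also occur in Ear1. Chemoattractant receptors had a median of -0.89 and 2 of 13 shared lower, Fpr1 and Ccr2, and leukocyte integrins -0.82 with 0 of 16.

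For the remaining programme lists, medians are given beside the -0.20 of all genes. They were -0.23 for 77 ribosomal protein genes, -0.27 for 38 translation factors, -0.12 for 31 proteasome subunits, -0.08 for 19 glycolysis genes, -0.26 for 31 actin and motility genes, -0.31 for 37 spliceosome genes, -0.20 for 20 lysosomal genes, 0.16 for 7 14-3-3 genes, 0.23 for 15 interferon-stimulated genes and -0.34 for 10 nuclear long noncoding RNAs. Together 8 of their members were shared lower and 1 (Gm26870) shared higher, beside 8.97% and 0.917% of all genes. The deepest of the translation set by fold change was Eif1a, which sets start codon choice, with 689 resident counts and 1 subset count (84.0 times, exact counting interval 15.0 to 3321). Rpl7 was the single ribosomal gene without overlap, at 218 to 336 against 153 to 177 CPM (-0.63 ± 0.36, edgeR adjusted p = 0.722). Neat1, the scaffold RNA of nuclear paraspeckles, read 26.6 to 77.0 against 7.81 to 16 CPM (-2.32 ± 0.81, edgeR adjusted p = 0.221).

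Markers of other cells that a lung or airway sort could hold also differed between the arms. The summed B and plasma cell markers ran from 140 to 266 CPM in resident and from 913 to 2077 CPM in subset libraries, with 1 of 14 tested members called higher (Igha) and 3 shared higher, beside 0.917% of all genes. Of the 14, 11 were higher and 3 lower by sign, with a median log2 fold change of 1.41. Jchain, which links IgA and IgM, read 2.51, 0, 0 and 0 CPM in resident, 48.3 and 13.5 CPM in Siglec-Fint/CD101- and 12.3 and 67.6 CPM in SiglecFhi/CD101+ libraries (5.89 ± 1.89, edgeR adjusted p = 0.161). Cd79a, a chain of the B cell receptor, ran from 16 to 59.6 against 69.3 to 237 CPM (1.75 ± 0.65, edgeR adjusted p = 0.273). One listed marker, Igkc, was at 0 in all 8 libraries. These levels move with Igha, and their part in its rise was not tested. In bulk libraries more cells of a type and more RNA per cell cannot be told apart.

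The other marker lists went several ways. Summed T and NK markers ran from 35.5 to 95 CPM in resident and from 154 to 498 CPM in subset libraries, with 0 of 7 tested members passing. The tested members did not share this direction: 3 were positive and 4 negative, with a median log2 fold change of -0.33. Of them 0 were shared higher and 1 shared lower, beside 0.917% and 8.97% of all genes. Cd4 read 0.157 to 3.59 CPM in resident libraries but 0 in Siglec-Fint/CD101- replicate 1 and 149, 81.8 and 63.0 CPM in the other subset libraries (5.43 ± 1.43, edgeR adjusted p = 0.112). Neutrophil markers summed to 202 to 490 against 654 to 1685 CPM, with much of the sums in Retnlg and Lcn2. Of 8 tested members, 7 were higher and 1 lower by sign, with a median log2 fold change of 1.15 and 0 shared. Lcn2, lipocalin 2, read 10, 5.54, 64 and 12.1 CPM in resident, 459 and 101 CPM in Siglec-Fint/CD101- and 311 and 63.6 CPM in SiglecFhi/CD101+ libraries. It missed separation by a narrow gap (3.35 ± 0.84, edgeR adjusted p = 0.112). Alveolar epithelial markers summed to 791 to 6464 against 3252 to 4516 CPM and airway markers to 748 to 8650 against 1761 to 5158 CPM, so both overlapped. Sftpa1 and Sftpd were the 2 of 12 alveolar members shared higher, beside 0.917% of all genes. By sign, 7 of the 12 were higher and 5 lower. Of 9 tested airway members, 2 were higher and 7 lower by sign, with a median log2 fold change of -0.80. Among these airway members 0 were shared higher and 1 shared lower, beside 0.917% and 8.97% of all genes. Resident replicate 5, the library with the most Sftpa1, Chia1 and Chil4 in its arm, held 6464 CPM of alveolar markers, and the part of such transcripts in the higher group was not tested.

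Myeloid markers gave no call. Macrophage and monocyte markers summed alike (1039 to 1720 against 1087 to 1695 CPM), and 3 of 15 tested members were shared lower, beside 8.97% of all genes. Csf1r, the receptor for macrophage colony-stimulating factor, read 54.1, 134, 33.8 and 80.4 CPM in resident, 15.6 and 12.2 CPM in Siglec-Fint/CD101- and 15.8 and 0.663 CPM in SiglecFhi/CD101+ libraries (-2.77 ± 0.91, edgeR adjusted p = 0.18). Cd68, a lysosomal glycoprotein of macrophages, ran from 29.2 to 74.5 against 1.75 to 18.0 CPM (-2.66 ± 0.91, edgeR adjusted p = 0.201), and Ccr2, the receptor of monocyte chemokine CCL2, from 27.2 to 75.2 against 0.641 to 24.5 CPM (-2.73 ± 1.16, edgeR adjusted p = 0.415). Dendritic cell markers summed to 277 to 661 against 193 to 382 CPM with 1 of 10 shared lower, near the share of all genes, and they overlapped. Erythrocyte and platelet, endothelial and fibroblast, and mast cell and basophil markers overlapped between the arms in their sums, with 0 members shared in either direction. Their tested members were nonetheless mostly higher by sign: 6 of 6 (median log2 fold change 0.82), 16 of 19 (0.38) and 1 of 2 (0.11) in that order. Of all genes tested, 3718 of 8508 were higher, with a median of -0.20.

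**Figure D4:**
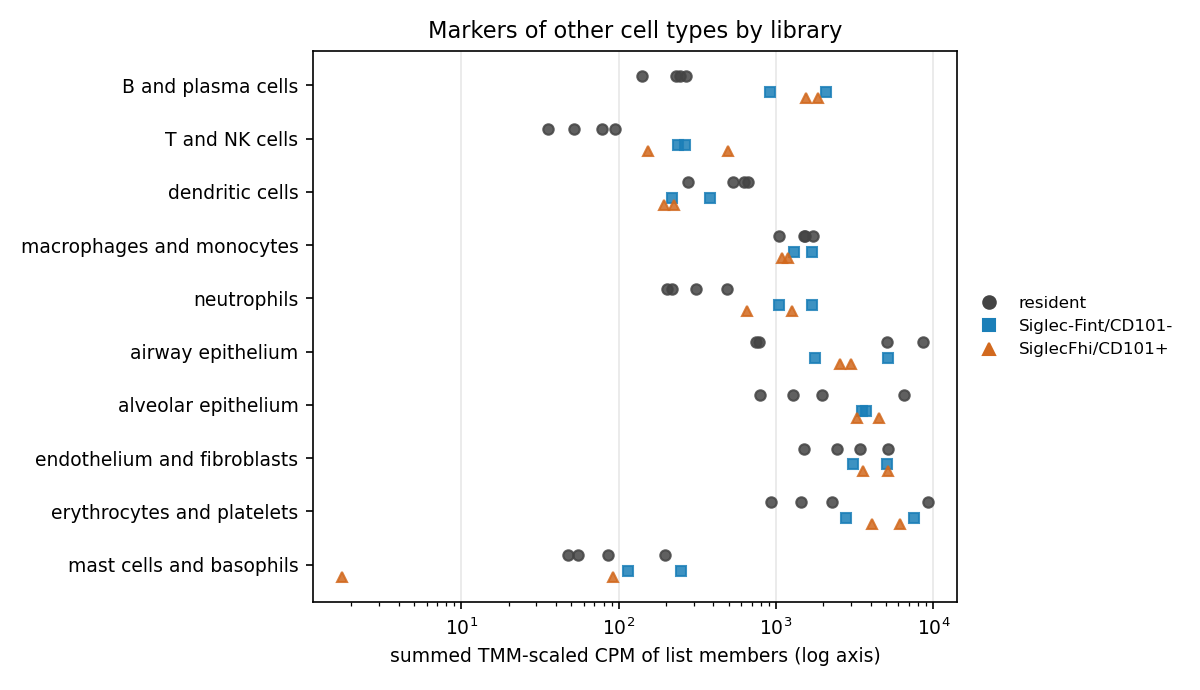
Summed TMM-scaled CPM (horizontal, log axis) of the listed markers of 10 other cell types in each library, grey for resident, blue for Siglec-Fint/CD101- and orange for SiglecFhi/CD101+. The sums of B and plasma cell, T and NK cell and neutrophil markers do not overlap between the arms (140 to 266 against 913 to 2077 CPM for B and plasma cells); the other 7 do.

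A feature that the choice of libraries did not use was the length of the genes. Shared higher genes had a median annotated span of 18.9 kb, against 27.6 kb for shared lower genes and 27.6 kb for all genes tested. Spans over 200 kb were found in 13 of 73 shared higher genes (17.8%), 32 of 714 shared lower genes (4.48%) and 599 of 8508 tested genes (7.04%). The long shared higher genes included several of neurons, chosen here after their values were seen: Fgf14, an intracellular regulator of sodium channels, Caln1, a calcium-binding protein, Grik2, a kainate receptor subunit, and Il1rapl2, a synaptic adhesion protein. Fgf14 read 0, 0.225, 1.57 and 0.127 CPM in resident, 6.39 and 3.21 CPM in Siglec-Fint/CD101- and 52.6 and 31.8 CPM in SiglecFhi/CD101+ libraries (5.53 ± 1.67, edgeR adjusted p = 0.138). Caln1 ran from 0.823 to 1.88 against 9.94 to 38.0 CPM (4.00 ± 1.29, edgeR adjusted p = 0.158) and Grik2 from 0.157 to 4.37 against 8.34 to 61.0 CPM (4.13 ± 1.39, edgeR adjusted p = 0.193). In Fgf14 and Caln1 both SiglecFhi/CD101+ libraries stood above both Siglec-Fint/CD101- libraries. Introns made up 99.4% of the span of Fgf14 and 97.8% of that of Caln1, and whether their reads fell in exons was not tested. A smaller share of the shared higher genes was protein-coding (87.7%, against 97.1% of shared lower and 96.6% of tested genes). Predicted models were 10 of the 73, against 25 of 714 shared lower and 303 of 8508 tested genes.

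**Figure D5:**
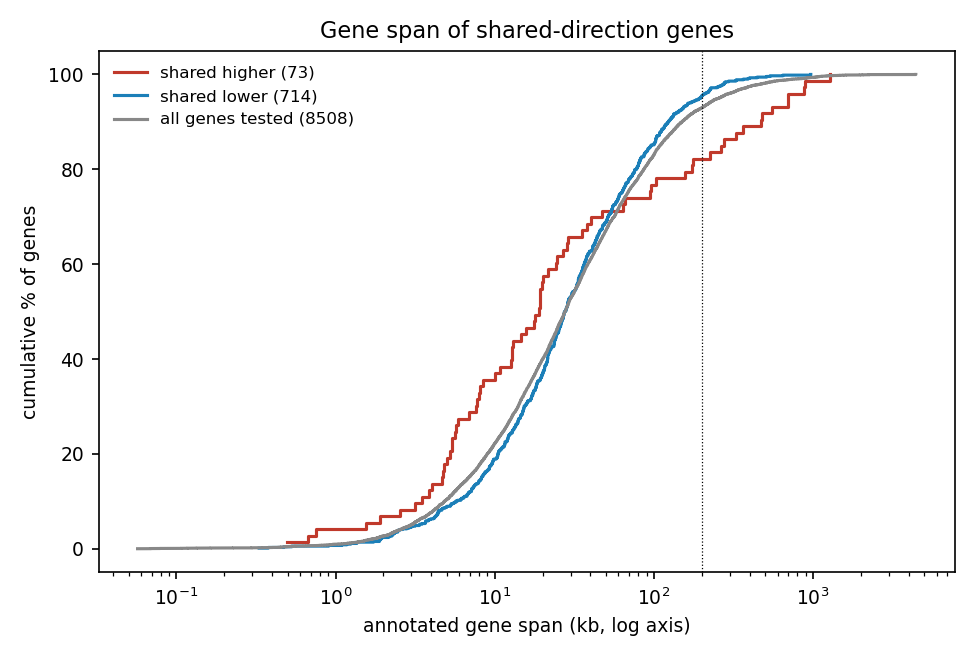
Cumulative percent of genes (vertical) by annotated gene span in kb (horizontal, log axis) for the 73 shared higher genes (red), the 714 shared lower genes (blue) and all 8508 genes tested (grey); the dotted line marks 200 kb. The red curve lies above the others at short spans and below them beyond about 200 kb, where 17.8% of its genes remain.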

How the data were processed

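RNA of 8 libraries of sorted mouse eosinophils was measured by CEL-Seq on a NextSeq550, per the labels' extract protocol. The authors deposited whole-number counts per Ensembl gene for each library, not normalized, as unequal totals show. Tools named in the submitters' processing notes are FastQC 0.11.5, cutadapt 1.10, TopHat2 2.1.0, Bowtie2 2.2.6, HTSeq 0.6.1 and DESeq2 1.28.0. For the genome build, annotation, strand setting and molecular identifiers, the authors' choice is not given in the sources used here. Repeated amplification copies, if counted, would widen the spread between libraries and make counting intervals too narrow.

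Of 54446 gene rows, 54409 matched a symbol and position by Ensembl identifier in GENCODE M21 (GRCm38), and 21197 had a count. Groups came from titles. Counts were fitted in edgeR 4.0.16 (R 4.3.3) as 2 arms of 4 libraries with filterByExpr, TMM factors and robust quasi-likelihood tests (two-sided), with genes called below 0.05 after Benjamini-Hochberg adjustment over all genes tested. The fit was also run on simulated counts with planted fold changes, and that outcome is not reported here. A gene that did not pass is not thereby shown to be unchanged. Standard errors are the log2 fold change over the square root of the F statistic. CPM values use TMM-adjusted totals, and CPM is not per length, but CEL-Seq reads do not grow with length. Genes without overlap had all 4 subset CPM values on 1 side of all 4 resident values. Arms at 0 were set against 3 counts over the arm, and arms with 1 to 3 counts carry exact (Clopper-Pearson) 95% counting intervals.

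The groups and 34 gene lists (24 programmes, 10 of other cells) were chosen with earlier results of these data known. Named genes have a mean log2 CPM no lower than the median of tested genes (3.69), no overlap under both totals and no predicted, pseudogene, mt- or antigen receptor symbol. In each direction they are the 10 largest fold changes that pass, filled by the smallest p. Siglecf, Cd101 and Il5ra are always given, and up to 4 members of each list with the smallest p may be named. Alternatives were RLE, upper-quartile and no factors, DESeq2 1.42.0, limma-voom (limma 3.58.1), non-robust fits, other filters and thresholds, 3 group means, thinning and omission of each library. Promoters came from RefSeq (GRCm38.p6).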

Additional observations from a re-analysis of the deposited data

Results flagged for a closer look

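Within an arm of 4 libraries, 19 of 142 sets of values had 1 library apart from the other 3, all 19 of them sets of gene levels. In these its gap to the nearest was a larger part of the arm's range than Dixon's 95% limit. For normally spread values chance gives about 1 in 20, but a set with counts in a single library is flagged whatever their number, and the sets share libraries. In the resident arm, replicate 5 was the high library for Chil4 (2.95 CPM), Chia1 (20.2 CPM), Igha (10.9 CPM), Lcn2 (64 CPM), Fgf14 (1.57 CPM) and Epx (1.64 CPM). Replicate 4 was high for Clca1 (1.12 CPM) and Il1rapl2 (3.44 CPM), replicate 6 for Il5ra (3.61 CPM) and Grik2 (4.37 CPM), and replicate 3 for Jchain (2.51 CPM). Among the subset libraries, Siglec-Fint/CD101- replicate 1 was high for H2-Aa (5352 CPM), Cst3, the cystatin C gene (1880 CPM), and Eif1a (0.71 CPM, the only subset count). Siglec-Fint/CD101- replicate 2 was high for Tank (8.34 CPM). SiglecFhi/CD101+ replicate 1 was high for Ccr2 (24.5 CPM) and Cd79a (237 CPM), and SiglecFhi/CD101+ replicate 2 for Prg2 (255 CPM) and Gpr35 (0.663 CPM, the only subset count). Every one of these genes except Il5ra and Epx was tested, and those 2 had too few counts.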

How the results depend on the processing

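No direction reversed among 67 named genes under 1253 gene-by-alternative refits: 1115 kept their side of the threshold, 110 newly passed it and 28, all of Chil3, Igha and Gm26870, no longer did. Retnla passed in 19 of 19 alternatives (edgeR, DESeq2 or limma-voom adjusted p at most 0.00886), Igha in 12, Chil3 in 9 and Gm26870 in 8. The main counts were 4 higher and 0 lower calls, 82 higher and 866 lower genes without overlap, and an all-gene median of -0.20. RLE factors gave 7 higher calls, 134 higher genes without overlap and a median of 0.08. Upper-quartile factors gave 2 higher calls, totals alone without mt- genes 2, the non-robust fit 2, and an adjusted p under 0.01 left 1. Totals alone with mt- genes gave 16 lower calls, 21 higher and 1900 lower genes without overlap and a median of -1.16. DESeq2 gave 91 higher and 329 lower calls (median 0.08), and limma-voom 28 and 220 (-1.13). Without a filter there were 77 and 35 calls over 21197 genes, 1664 lower genes without overlap and a median of -0.71. The 3 group means gave 2 higher calls and a median of -0.75, and thinning 299 lower genes without overlap and a median of 0.01. Requiring a gap of 2-fold left 16 higher and 474 lower genes, and asking only that each subset library be beyond the resident mean gave 300 and 1628. Omitting 1 library gave 1 to 11 higher and 0 to 3 lower calls, 94 to 246 higher and 920 to 1958 lower genes without overlap (3 against 4 overlap less easily) and medians of -0.44 to -0.16. Without Siglec-Fint/CD101- replicate 1 there were 11 higher and 3 lower calls, without SiglecFhi/CD101+ replicate 2 there were 2 and 1, and without any other library 1 to 3 higher and 0 lower. Apart from the filters, the omissions and the thinning, which change the genes or libraries, the cause was not tested. Depth limits what can be said of low genes: a subset library without counts allows up to 1.75 to 2.13 CPM. No paired analysis was possible because resident libraries carry replicate numbers 3 to 6 and subset libraries 1 and 2.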
